A study of Homo sapiens with 6 samples.

Results

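The genes described here encode the proteins that bring glucose into the cell and pass it through glycolysis, to and from lactate, through the pentose phosphate pathway and into and out of glycogen. They were chosen by name, with earlier results of these data known. Of 37 genes listed, 34 had at least 1 probe set that the platform annotation gives to that gene only. In all, 18129 genes were measured. The other members are accounted for as follows. SLC2A3 is on 5 probe sets, each shared with its relative SLC2A14, while SLC16A1 and SLC16A3 were not analysed here. Where a gene had several probe sets, the brightest on average over the 6 arrays was used.

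The study compared UMUC3-c31 cells given 10 nM R1881, a synthetic androgen that binds the androgen receptor and is slowly broken down, with the same cells given the ethanol vehicle. Both groups were held for 24 h in serum freed of steroids with charcoal and then treated for 24 h. RNA of 3 biological replicates per group was hybridised to Affymetrix arrays. UMUC3 is a human bladder carcinoma line, all replicates came from the one line UMUC3-c31, and the sources used here do not say what c31 denotes.

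Values are log2 RMA values, made by the authors, and a difference of 1 on this scale is a doubling. Changes are given as R1881 minus vehicle, each with its standard error (SE) from a limma fit over all genes, and "rose" or "fell" is used of genes with a Benjamini-Hochberg adjusted p under 0.05. The number of arrays, 3 per group, limits the precision of every value. Fewer molecules per cell and fewer cells that make a transcript cannot be told apart in such bulk RNA. Probe sets differ in brightness for the same amount of RNA, so no gene's level is set against another's. A level of 4.99, the 90th percentile of 423 olfactory receptor and keratin-associated protein genes that such cells should not use, was taken as background. Probe sets with a mean above 12 are pointed out, since arrays may compress changes there, which was not tested.

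Over all genes the array medians were 5.49 to 5.51. On the second principal component vehicle replicate 1 scored 11.04 and the remaining vehicle arrays -8.21 and -6.99. It was the lowest vehicle array for 21 of the 34 members, while it was the lowest for 30.9% of all genes, so results are given below also without it. R1881 replicate 1 was the lowest R1881 array for 16 members and for 31% of all genes. Of 20 urothelial markers 7 lay above background in at least 1 group and 13 below it in both, and their mean was 4.71 to 4.73 with R1881 and 4.68 to 4.74 with vehicle. The uroplakin genes UPK1B, UPK2 and UPK3A and the epithelial genes CDH1 and EPCAM lay below background in all 6 arrays, while UPK1A and UPK3B lay just above it, at 5.08 and 5.35 with R1881 and 5.03 and 5.34 with vehicle. The keratin genes KRT8 and KRT18 lay well above background, at 7.84 and 10.38 with R1881 and 7.91 and 10.75 with vehicle. The keratin gene KRT7 rose (0.40, adjusted p = 0.0192) and KRT18 fell (-0.37, adjusted p = 0.0083). The mean over 6 mesenchymal markers, all above background, was 9.86 to 9.89 with R1881 and 9.69 to 9.82 with vehicle. Among these the matrix gene FN1 rose (0.73, adjusted p = 0.00473), and the filament gene VIM, on a set above 12, stood at -0.04. The part of these markers in the results was not tested. The mean over 10 immune and endothelial markers was 4.51 to 4.58 with R1881 and 4.53 to 4.59 with vehicle, and that over 8 fibroblast markers was 4.23 to 4.29 with R1881 and 4.24 to 4.38 with vehicle.

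Glycolysis splits glucose into pyruvate, with control mainly at glucose entry, hexokinase, phosphofructokinase and pyruvate kinase. Pyruvate becomes lactate in the cytosol or enters mitochondria through pyruvate dehydrogenase, which the PDK kinases switch off. The pentose phosphate pathway branches off early and gives NADPH and ribose, and glycogen stores glucose units that phosphorylase later releases. Many tumours keep glycolysis high in the presence of oxygen, and in prostate cancer cells androgen is known to raise several of these genes, HK2 and PFKFB2 among them.

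Of the 34 measured members 4 rose with R1881, none fell and 30 did not pass the test. Those that rose were PYGL, the liver form of glycogen phosphorylase, SLC2A1, the widespread glucose transporter of the plasma membrane, PFKFB4, which sets the activator of phosphofructokinase, and GBE1, the glycogen branching enzyme. The called members were 11.8% of those measured. Of all genes 2.42% were called, 1.60% higher and 0.816% lower with R1881, and of the genes above background 3.86%. No test over the members was run, as they were chosen with earlier results of these data known. The median member stood at 0.095 and the median of all genes at 0, and 28 members were higher by sign and 6 lower. An unadjusted p under 0.05 was reached by 15 of the 34 members and by 2585 of the 18129 genes. The groups did not overlap for 15 members higher and 1 lower with R1881, or 47.1% of members. Over all genes this share was 18.5%, with 8.53% higher and 9.93% lower, and over the genes above background it was 25.9%.

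Vehicle replicate 1 carried part of that balance. Without it the members' median was 0.04, and 25 were higher by sign and 8 lower. The groups then did not overlap for 17 members higher and 3 lower, or 58.8% of members, beside 28.1% of all genes. Leaving out any other single array left a median of 0.08 to 0.125. The number of calls was not particular to that array: 2 members, PYGL and SLC2A1, passed without it, without vehicle replicate 2 and without any of the R1881 arrays, and 3 passed without vehicle replicate 3. The share of all genes called in these fits was 1.49% without vehicle replicate 1 and 1.15 to 1.34% without any other array.

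**Figure D1:**
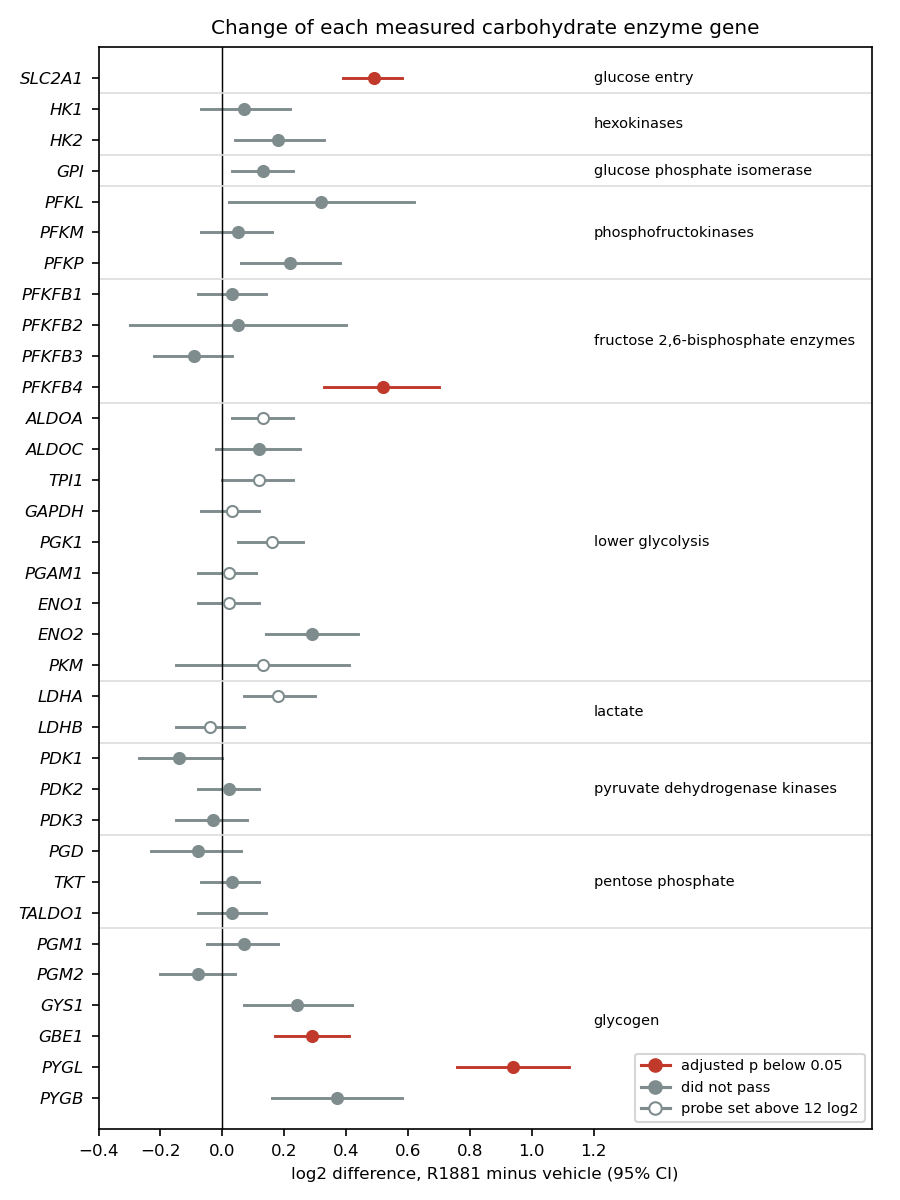
Log2 difference (R1881 minus vehicle, horizontal axis) of the 34 measured members, grouped by role, with 95% confidence intervals of the limma fit over 3 arrays per group. The 4 red genes passed the test, PYGL lies farthest out at 0.94, and open circles are the 9 members on probe sets above 12.

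The promoters of the 4 genes that rose are shown first, as RefSeq gives them on GRCh38.p14, 250 bases before to 50 after the annotated start, each on the minus strand and written 5′ to 3′. They are at chr14:50944434-50944733 for PYGL, chr1:42958819-42959118 for SLC2A1, chr3:48556754-48557053 for PFKFB4 and chr3:81761596-81761895 for GBE1. Capitals mark matches, on either strand, to ACGTG, the core of the hypoxia response element, to the E-box CACGTG, which contains that core, or to AGAACA, one arm of the androgen response element.
PYGL: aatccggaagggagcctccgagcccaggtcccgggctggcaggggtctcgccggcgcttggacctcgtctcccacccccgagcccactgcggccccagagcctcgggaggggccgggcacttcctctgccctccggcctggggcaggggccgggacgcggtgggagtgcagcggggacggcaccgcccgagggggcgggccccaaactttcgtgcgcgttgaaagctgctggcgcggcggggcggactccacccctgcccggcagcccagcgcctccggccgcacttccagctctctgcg
SLC2A1: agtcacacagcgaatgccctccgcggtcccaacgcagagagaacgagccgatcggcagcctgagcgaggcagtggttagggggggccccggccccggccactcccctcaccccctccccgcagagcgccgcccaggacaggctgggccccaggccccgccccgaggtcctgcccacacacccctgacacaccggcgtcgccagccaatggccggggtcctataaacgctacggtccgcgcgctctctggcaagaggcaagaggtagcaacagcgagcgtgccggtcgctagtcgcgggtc
PFKFB4: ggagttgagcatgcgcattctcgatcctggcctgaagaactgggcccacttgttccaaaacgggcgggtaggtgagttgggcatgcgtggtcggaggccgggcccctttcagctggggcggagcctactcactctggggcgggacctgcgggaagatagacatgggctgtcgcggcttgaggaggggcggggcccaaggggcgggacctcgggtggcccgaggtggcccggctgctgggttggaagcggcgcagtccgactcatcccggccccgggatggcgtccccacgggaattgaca
GBE1: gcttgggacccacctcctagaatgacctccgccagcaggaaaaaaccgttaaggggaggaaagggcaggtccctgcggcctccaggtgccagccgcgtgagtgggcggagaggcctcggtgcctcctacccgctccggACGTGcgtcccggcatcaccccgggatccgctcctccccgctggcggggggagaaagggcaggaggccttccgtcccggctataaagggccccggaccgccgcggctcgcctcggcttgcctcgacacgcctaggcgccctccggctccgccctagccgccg

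Of these windows only that of GBE1 held a match, 1 ACGTG starting 112 bases before the start. Over 27305 promoters of the same length, ACGTG was found in 21.6%, CACGTG in 7.43% and AGAACA in 14.9%. Of the 33 measured members with a promoter in the table, 12 held ACGTG, 4 CACGTG and 2 AGAACA. The 4 windows are rich in G and C, at 76% for PYGL, 71% for SLC2A1, 68% for PFKFB4 and 71.3% for GBE1, beside a median of 69.7% over the members and 58.3% over all promoters. A match describes letters in this window only and says nothing of binding, and distal elements were not searched.

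Glucose entry was represented by SLC2A1. It had 11.32, 11.37 and 11.32 in R1881 arrays, against 10.84, 10.87 and 10.84 in vehicle arrays. The 6 arrays formed a pair of tight, separate groups. The change was 0.49 ± 0.04 (SE), or 1.4-fold with a 95% confidence interval of 1.31 to 1.5 and an adjusted p of 0.0017. All 4 SLC2A1 probe sets were higher with R1881, by 0.49 to 0.56, and 3 of them passed when every probe set was tested. Leaving out each array in turn kept the call (adjusted p of 0.0109 to 0.017). The 5 sets shared by SLC2A3, the high-affinity transporter of neurons, and SLC2A14 had group means of 3.17 to 4.89 with R1881 and 3.29 to 4.94 with vehicle, all below background, and none passed.

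Hexokinases trap glucose by phosphorylating it. HK2, the inducible form bound to mitochondria, had 9.77, 9.90 and 9.77 with R1881, against 9.68, 9.54 and 9.67 with vehicle, which did not overlap. Its change of 0.18 ± 0.06 did not pass (adjusted p = 0.241), and its second probe set gave 0.22. HK1, the housekeeping form, stood at 0.07 ± 0.06 with overlapping groups, and its 4 sets ranged over 0.02 to 0.07. GPI, the isomerase of the next step, stood at 0.13 ± 0.04 with an adjusted p of 0.216.

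Phosphofructokinase commits sugar to glycolysis, and its subunits are PFKL, PFKM and PFKP, named for liver, muscle and platelet. PFKL had 8.18, 8.13 and 8.07 with R1881, against 7.49, 7.99 and 7.94 with vehicle. The gap was narrow except for vehicle replicate 1, which lay far below the rest. The change was 0.32 ± 0.13 (adjusted p = 0.326) with all arrays and 0.16 ± 0.05 without that array (adjusted p = 0.275). PFKP had 11.73, 11.85 and 11.81 with R1881, against 11.45, 11.65 and 11.64 with vehicle. Here too the groups did not overlap and vehicle replicate 1 was lowest. Its change of 0.22 ± 0.07 did not pass (adjusted p = 0.211), and was 0.15 without vehicle replicate 1. PFKM stood at 0.05 ± 0.05.

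The PFKFB enzymes make and break the sugar bisphosphate that switches phosphofructokinase on. PFKFB4 had 9.09, 9.12 and 9.26 in R1881 arrays, against 8.50, 8.67 and 8.75 in vehicle arrays. Every R1881 array lay clearly above every vehicle array. The change was 0.52 ± 0.08 (SE), or 1.43-fold with a 95% interval of 1.26 to 1.63 and an adjusted p of 0.0201. All 4 PFKFB4 sets were higher, by 0.31 to 0.52, and 2 passed with every set tested. The call held without vehicle replicate 3 (adjusted p = 0.0439) and was lost without any other array (0.0523 to 0.0916). PFKFB3, the form with the strongest kinase activity, stood at -0.09 ± 0.05 with overlapping groups. PFKFB2, the heart form, and PFKFB1, the liver form, lay below background in both groups, PFKFB2 on all 6 of its sets, so nothing can be said of a change in them.

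**Figure D2:**
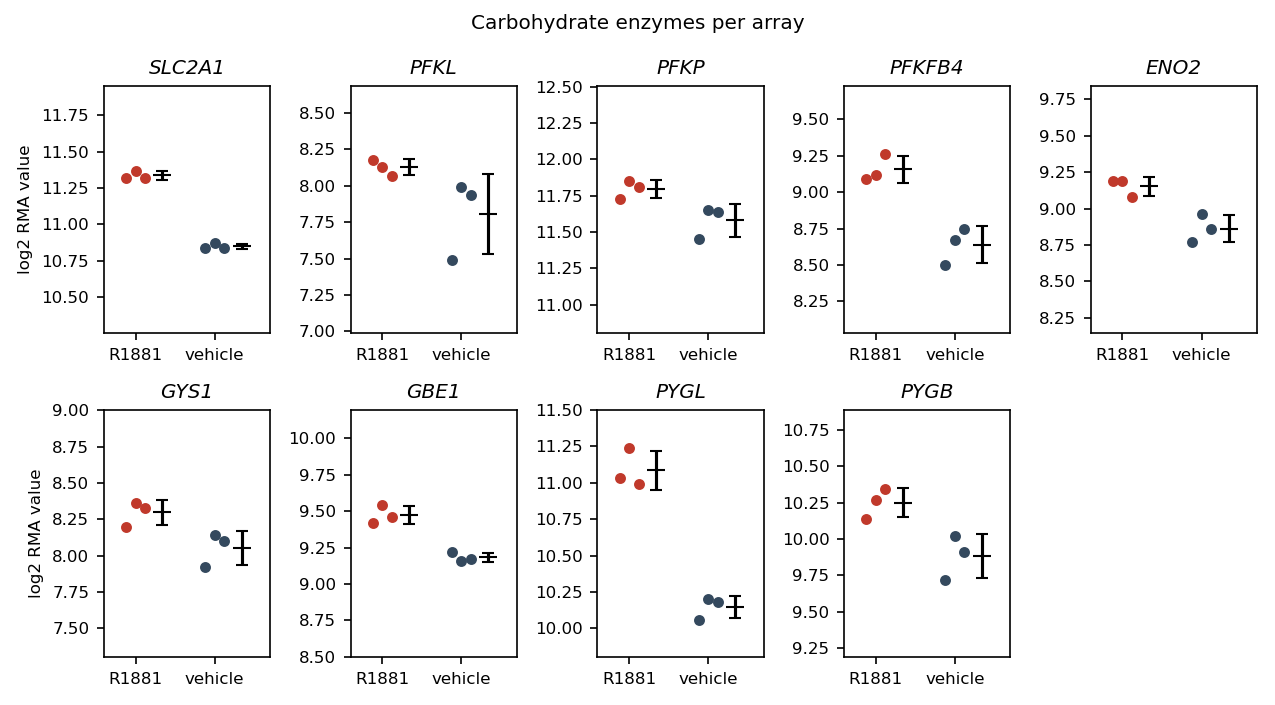
Log2 RMA values in each array of the 9 members that passed the test or whose groups did not overlap with a difference of at least 0.2. Points are arrays in order of replicate number, R1881 on the left and vehicle on the right, bars give mean and SD (n = 3), and all panels span the same height. In PFKL, PFKP, PFKFB4, ENO2, GYS1, PYGL and PYGB the lowest vehicle point is replicate 1.

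The lower steps, from aldolase to pyruvate kinase, turn sugar phosphates into pyruvate and yield the pathway's ATP. All 9 of these members were higher by sign with R1881, none passed, and the median change was 0.12. ENO2, the neuronal enolase, stood highest, with 9.19, 9.19 and 9.08 in R1881 arrays against 8.77, 8.96 and 8.86 in vehicle arrays. Its groups did not overlap, and its change of 0.29 ± 0.06 missed the threshold with an adjusted p of 0.0793. It passed when only genes above background were tested (0.0317) and with a trended, robust prior (0.0149).

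Small shifts of the abundant enzymes came next. PGK1, the kinase that makes the first ATP of the pathway, stood at 0.16 ± 0.04, ALDOA at 0.13 ± 0.04 and TPI1, the triose isomerase, at 0.12 ± 0.05, each with groups that did not overlap. Their adjusted p were 0.16, 0.237 and 0.354. All 9 PGK1 sets were higher by sign, by 0.03 to 0.17. With sets above 12 left out, PGK1 stood at 0.07 (adjusted p = 0.608). PKM, pyruvate kinase, stood at 0.13 ± 0.12, but at -0.01 without vehicle replicate 1. ALDOC, the brain aldolase, stood at 0.12 ± 0.06 on the set used, the smallest change of its 5. The 2 other sets above background gave 0.42 and 0.27, both without overlap of the groups, and the mean of its sets 0.25 (adjusted p = 0.117), so none passed.

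GAPDH, ENO1 and PGAM1, the dehydrogenase, the main enolase and the mutase, hardly differed, at 0.03, 0.02 and 0.02, each with a SE of 0.04. Their 95% intervals ran to 0.12 at the upper end for GAPDH and ENO1 and 0.11 for PGAM1, and to -0.07 for GAPDH and -0.08 for the others at the lower end. The lower steps other than ALDOC and ENO2 were read on probe sets above 12. Of all 259 genes on such sets 85 were higher by sign and 167 lower, with a median of -0.02, whereas 8 of the 9 members there were higher by sign, with a median of 0.12.

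At the lactate step, LDHA, whose subunit favours lactate formation, had 14.25, 14.24 and 14.19 with R1881, against 13.97, 14.09 and 14.07 with vehicle. Both lactate genes were read on probe sets above 12. The LDHA groups did not overlap, the change of 0.18 ± 0.05 did not pass (adjusted p = 0.151), and all 4 LDHA sets lay within 0.14 to 0.19. LDHB, whose subunit favours the use of lactate, stood at -0.04 ± 0.04. Among the kinases that inactivate pyruvate dehydrogenase, PDK1 had 9.34, 9.43 and 9.42 with R1881, against 9.51, 9.47 and 9.62 with vehicle. It was the only member whose R1881 arrays all lay below the vehicle arrays, by -0.14 ± 0.06, and it did not pass (adjusted p = 0.334). PDK2 and PDK3 stood at 0.02 and -0.03.

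No measured pentose phosphate member moved beyond the spread. PGD, which makes NADPH, stood at -0.08 ± 0.06, and the transfer enzymes TKT and TALDO1 at 0.03 ± 0.04 and 0.03 ± 0.05. All 3 had overlapping groups, and their 95% intervals lay between -0.23 and 0.14.

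**Figure D3:**
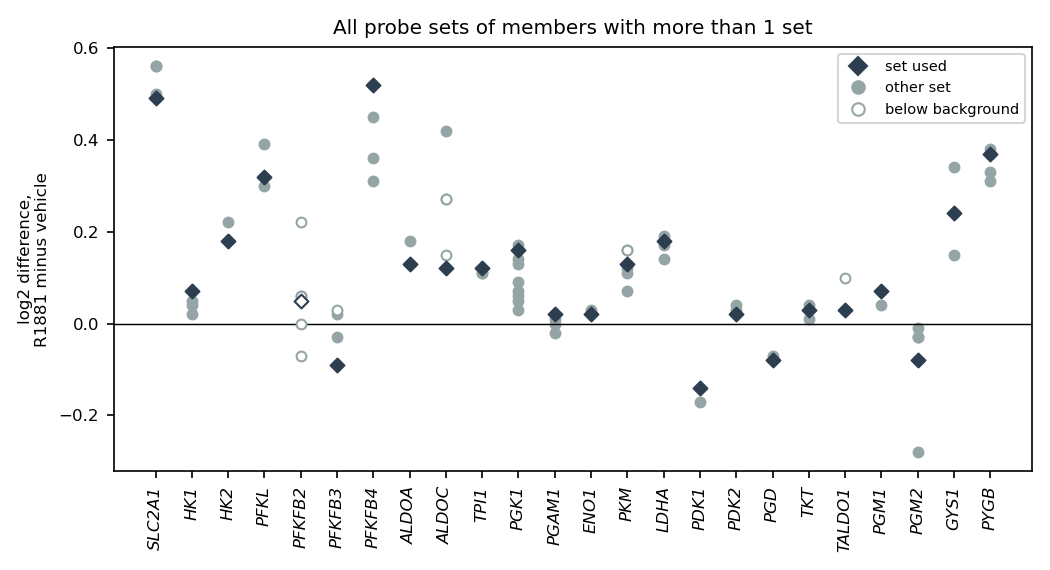
Log2 difference (R1881 minus vehicle, vertical axis) of every probe set of the 24 members with more than 1 set, the set used as a dark diamond and sets below background as open symbols. The 4 SLC2A1 sets lie at 0.49 to 0.56 and the 5 PYGB sets at 0.31 to 0.38, while all 3 TKT sets lie within 0.01 to 0.04.

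The largest change among the members was in a glycogen enzyme. PYGL, which releases glucose units from glycogen, had 11.03, 11.24 and 10.99 in R1881 arrays, against 10.06, 10.20 and 10.18 in vehicle arrays. The lowest R1881 array lay well above the highest vehicle array. The change was 0.94 ± 0.08 (SE), or 1.92-fold with a 95% interval of 1.69 to 2.18 and an adjusted p of 0.00149. It kept its call without any 1 array (0.00615 to 0.0145), and it rests on 1 probe set.

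PYGB, the brain form, had 10.14, 10.27 and 10.34 with R1881, against 9.72, 10.02 and 9.91 with vehicle. The groups did not overlap, and the change of 0.37 ± 0.09 did not pass (adjusted p = 0.109). All 5 PYGB sets were higher, by 0.31 to 0.38, 1 of them passed when every set was tested, and the mean of the sets passed as well (0.35, adjusted p = 0.0335). Without vehicle replicate 1 the change was 0.29 (adjusted p = 0.205).

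On the side of synthesis, GBE1 had 9.42, 9.54 and 9.46 in R1881 arrays, against 9.22, 9.16 and 9.17 in vehicle arrays. The vehicle arrays lay close together, and all R1881 arrays lay above them. The change was 0.29 ± 0.05, or 1.22-fold with a 95% interval of 1.13 to 1.32 and an adjusted p of 0.0316. The GBE1 call did not survive leaving out a single array, whichever it was (0.0648 to 0.136), and with every probe set tested its adjusted p was 0.0501. GYS1, the muscle form of glycogen synthase, had 8.20, 8.36 and 8.33 with R1881, against 7.92, 8.14 and 8.10 with vehicle. These did not overlap either, but 0.24 ± 0.07 did not pass (adjusted p = 0.198). Without vehicle replicate 1, the lowest vehicle array here, the change was 0.18 (adjusted p = 0.318). All 3 GYS1 sets were higher, by 0.15 to 0.34, and none passed. PGM1 and PGM2, which move phosphate on glucose and pentoses, stood at 0.07 ± 0.05 and -0.08 ± 0.05.

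To ask whether related enzymes changed unequally, the log2 difference between 13 pairs of members was taken within each array. Of these, GBE1 minus GYS1 joins successive steps of glycogen synthesis, and PFKFB2 minus PFKFB3 is not read, as PFKFB2 lay below background. In 6 pairs the R1881 arrays did not overlap the vehicle arrays. Each of these had an exact two-sided permutation p of 0.1, the smallest that 3 against 3 arrays can give (0.217 adjusted over the pairs). A pair can separate through 1 of its genes alone, and among single genes above background 25.9% had groups without overlap. Such a share was not computed for other pairs of genes. PFKFB4 minus PFKFB3 was -0.03, 0.08 and 0.27 with R1881, against -0.62, -0.53 and -0.36 with vehicle, a shift of 0.61 towards PFKFB4. PYGL minus PYGB was 0.89, 0.97 and 0.65 with R1881, against 0.34, 0.18 and 0.27 with vehicle, so PYGL gained 0.57 on PYGB. LDHA minus LDHB was 0.89, 0.85 and 0.81 with R1881, against 0.61, 0.64 and 0.63 with vehicle, a shift of 0.22 on sets above 12.

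The enolases, ENO1 on a set above 12, shifted by 0.27 towards ENO2, PGM2 minus PGM1 moved by -0.15, and PFKM minus PFKL by -0.27, or -0.14 without vehicle replicate 1. In the remaining 7 pairs the groups overlapped. HK2 minus HK1 was 1.98 to 2.04 with R1881, against 1.80 to 2.05 with vehicle, and its groups were apart without vehicle replicate 1, by 0.19. Those of GBE1 minus GYS1 were then apart as well, by 0.13.

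**Figure D4:**
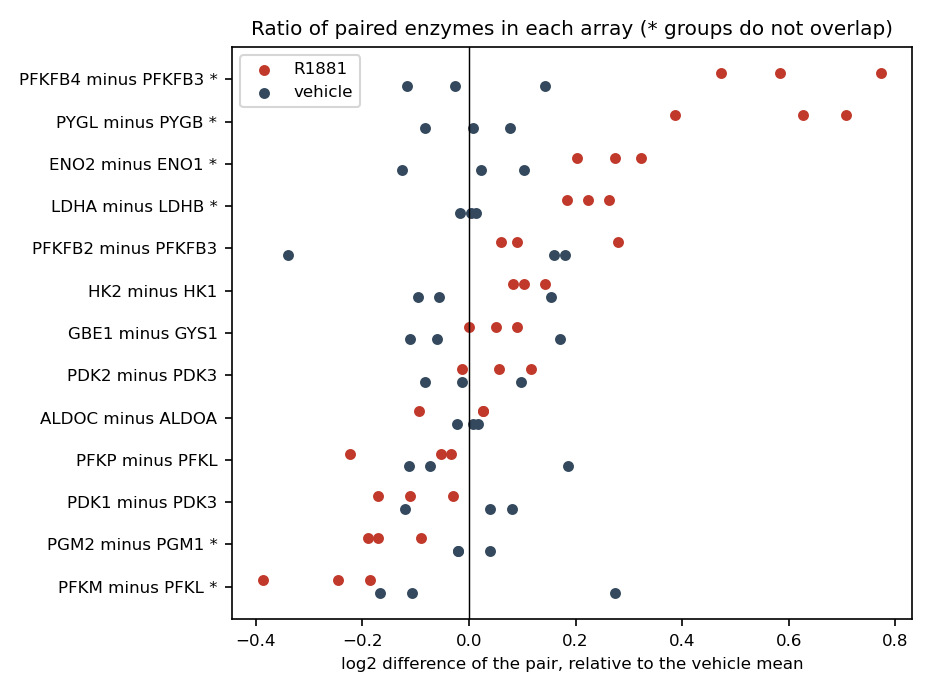
Log2 difference between paired enzymes in each array, relative to the mean of the vehicle arrays (horizontal axis), R1881 arrays in red above vehicle arrays in dark blue. Asterisks mark the 6 pairs without overlap, with PFKFB4 minus PFKFB3 farthest to the right at a mean shift of 0.61.

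Other genes of carbohydrate metabolism were read in the same fit, from 7 lists with 103 measured genes in all. There 8 rose with R1881, none fell and 95 did not pass, with a median of 0.04. That is 7.77% called, beside 2.42% of all genes. These lists too were chosen with earlier results known, and no test over them was run. Those that rose included 3 of 24 glycogen genes (PPP1R3C, PPP1R3B and PGM2L1) and 2 of 17 regulators (MLXIP and EPAS1). In the sugar transport list 3 of 15 rose, of which SLC2A6 encodes a transporter, while ARRDC4 and TXNIP encode proteins that restrain uptake. None of 17 other glycolytic enzymes, 11 genes of pyruvate entry into mitochondria, 11 other pentose phosphate enzymes or 8 gluconeogenesis genes passed in limma. Unadjusted p under 0.05 were reached there by 1, 4, 6 and 1.

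PPP1R3B and PPP1R3C encode subunits that bring a protein phosphatase to glycogen, where it favours synthesis. PPP1R3C had 10.75, 10.71 and 10.58 in R1881 arrays, against 9.76, 9.79 and 9.65 in vehicle arrays, a change of 0.95 ± 0.06 (adjusted p = 0.000569). PPP1R3B had 8.47, 8.56 and 8.46 with R1881, against 7.53, 7.60 and 7.49 with vehicle, a change of 0.96 ± 0.05 (adjusted p = 0.000227). Both groups of arrays were far apart in each gene, and both genes kept their calls without any 1 array. The dimmer PPP1R3B set gave 0.25 and did not pass. PGM2L1, a relative of phosphoglucomutase, had 5.17, 5.15 and 5.30 with R1881, against 4.43, 4.59 and 4.29 with vehicle. As the vehicle mean lay below background, its fold is at least 1.16 (adjusted p = 0.00492).

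MLXIP encodes MondoA, a transcription factor that senses glucose phosphates, and TXNIP and ARRDC4, known targets of it, encode arrestin-like proteins that restrain glucose uptake. MLXIP had 9.28, 9.11 and 9.24 in R1881 arrays, against 7.96, 8.04 and 7.99 in vehicle arrays, a change of 1.21 ± 0.06 (adjusted p = 0.000152). Its 4 sets disagreed: the brighter ones gave 1.21 and 1.31, the dimmer ones, below background, -0.06 and -0.04. TXNIP had 8.22, 8.21 and 8.08 with R1881, against 7.59, 7.51 and 7.29 with vehicle, a change of 0.71 ± 0.09 (adjusted p = 0.00754). ARRDC4 had 7.42, 7.71 and 7.53 with R1881, against 6.59, 6.64 and 6.48 with vehicle, a change of 0.98 ± 0.08 (adjusted p = 0.00163). The uptake gene SLC2A1 and these restraining genes were thus all higher with R1881.

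TXNIP was higher on all 5 of its sets and lost its call without R1881 replicate 1 (adjusted p = 0.0563) or replicate 2 (0.0556). MLXIP and ARRDC4 kept theirs without any 1 array. SLC2A6, of the glucose transporter family, changed by 0.43 ± 0.06 (adjusted p = 0.0149) and was called in 2 of 6 fits with an array left out (0.0373 to 0.0861). With sets that have s or x in their identifier left out, SLC2A6 stood at 0.3 and did not pass (adjusted p = 0.075). EPAS1, which encodes an oxygen-regulated transcription factor, had 11.32, 11.28 and 11.38 with R1881, against 9.82, 10.00 and 9.95 with vehicle (1.4 ± 0.06, adjusted p = 0.000101). Its relative HIF1A stood at 0.16 ± 0.04 and did not pass (adjusted p = 0.156). All 8 HIF1A sets were higher, by 0.16 to 0.25. HIF1A passed with a trended, robust prior (0.0165) but in no fit with 1 array left out (0.211 to 0.34). In the RefSeq promoter windows, ACGTG occurred 4 times in PPP1R3C and 2 times in ARRDC4, with 1 CACGTG each, and not in EPAS1, MLXIP, PGM2L1, TXNIP or SLC2A6. PGM2L1 held 1 AGAACA, the only match to that motif among these 7 windows, and the window of PPP1R3B was not analysed here.

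**Figure D5:**
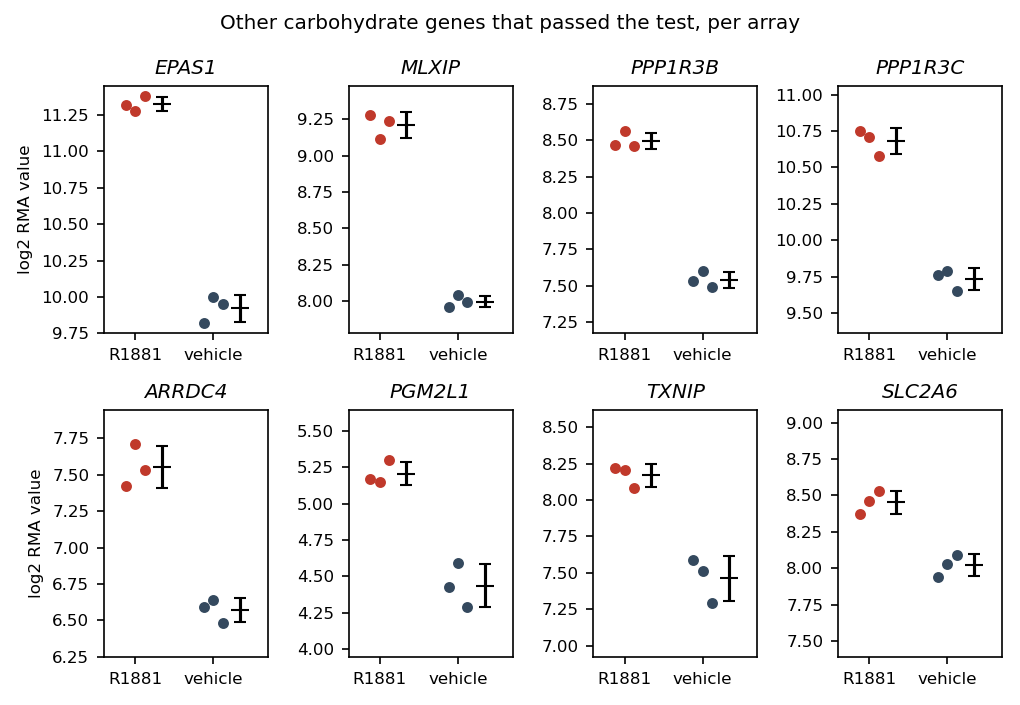
Log2 RMA values in each array of the 8 other carbohydrate genes that passed the test, R1881 on the left and vehicle on the right, with mean and SD (n = 3) as bars and panels of equal height. In every panel the R1881 arrays lie above the vehicle arrays, by 1.4 on average in EPAS1 and 0.43 in SLC2A6.

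Lower values did not pass with all genes tested, but some did under other settings. The smallest p among them belonged to PRPS1, which activates ribose for nucleotide synthesis, with 9.94, 9.92 and 9.89 in R1881 arrays against 10.19, 10.09 and 10.14 in vehicle arrays (-0.22 ± 0.05, adjusted p = 0.064). BPGM, the bisphosphoglycerate mutase, stood at -0.24 ± 0.06 (adjusted p = 0.104) and DLAT, a core subunit of pyruvate dehydrogenase, at -0.17 ± 0.04 (0.135). All 3 passed when only genes above background were tested (adjusted p of 0.0204, 0.0415 and 0.0484). PRPS1 and DLAT passed with a trended, robust prior (0.00628 and 0.0319), and PRPS1 with the mean of its sets (0.0218). None of the 3 passed in any fit with 1 array left out (0.112 to 0.326). In the pentose phosphate list 5 of 11 genes had R1881 arrays wholly below the vehicle arrays, as had 9.93% of all genes. The 5 lay above background, where 1634 of 11049 genes had such arrays. These 5 are named here after their values were seen. Besides PRPS1 they were DERA at -0.16, RPIA and RPE, which interconvert pentose phosphates, both at -0.12, and PRPS2 at -0.10. H6PD, which acts in the endoplasmic reticulum, stood at 0.23 with groups that did not overlap.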

How the data were processed

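Gene expression was measured on 6 arrays, 3 with R1881 and 3 with vehicle. The deposited values are on the log2 scale, and the submitters' processing notes name RMA as the method. It removes background, equalises the distribution of the arrays and summarises each probe set, so a shift of all genes one way would be lost. They carry 2 decimals. Scanner files were not used, so background is known only by a proxy.

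Of 49193 probe sets, 44898 had 1 gene symbol in the platform annotation, 1825 several and 2470 were not listed. Sets with 1 symbol gave 18129 genes, 11714 of them with several sets. For 13 of the 34 members the set used has s or x in its identifier, so close relatives can contribute signal.

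R1881 was compared with vehicle by limma 3.58.1 in R 4.3.3 (lmFit, eBayes, no trend, two-sided, Benjamini-Hochberg over all genes, threshold 0.05), with no pseudocount, filter or block. Values were given per array for members that passed, or whose groups did not overlap with a difference of at least 0.2. Among other carbohydrate genes those that passed and the next 4 by p were named. The members, lists and rules were chosen with earlier results of these data known. Alternatives were other array scalings, a filter on dim genes, other priors, array weights, a replicate block, other choices of probe set and leaving out each array.

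When tested on simulated arrays of this comparison (18129 genes), 52% of genes with a change of 0.3 and 100% with a change of 1 were called. A change of 0.5 was called in 100% and a change of -0.5 in 90%. No pair of arrays had more than 9.02% equal values.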

Additional observations from a re-analysis of the deposited data

How the results depend on the processing

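Over all genes 438 passed, but 757 with only genes above background tested, 895 with a trended, robust prior, 722 probe sets when each set with 1 gene was tested, and 209 to 270 when 1 array was left out. Of the members 4 passed, but 10 with the trended, robust prior, all higher, where PYGB, ENO2, PGK1, LDHA, ALDOA and GPI joined them, and 2 to 3 with 1 array left out. With only genes above background 6 members passed, ENO2 and PYGB being added. No member whose call was gained or lost changed direction under any alternative, and 26 of the 34 had the same call throughout. The cause of the changes was not tested. In the leave-outs the smaller number of arrays and the array removed cannot be told apart. The other carbohydrate genes gave 8 calls, all higher, and 6 to 12 under the alternatives. Of these, 3 were lower with only genes above background, 3 with the trended, robust prior and 1 with the mean of the sets. The non-overlapping enzyme pairs numbered 6 of 13, and 4 to 8 under the alternatives run for them. The counts of 4 came without s or x sets and without sets above 12, where only 10 pairs could be formed. With the replicate number as a block 222 genes and 3 members passed, GBE1 being lost (adjusted p = 0.122). The numbers were not taken as pairs, since deviations of equally numbered arrays from their group means correlated by 0.092, 0.057 and 0.033 over genes, although each array correlated best with its own number. Detection is limited by 3 arrays per group and by background, below which 2 of the 34 members lay.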
